A study of Mus musculus with 75 samples.

Results

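Cholesterol synthesis and its control by the sterol regulatory element-binding proteins (SREBPs) were followed in mouse fibroblasts that carried different forms of the NF-kB subunit RelA and were treated with tumour necrosis factor (TNF). The 29 genes were taken by name from the 45706 gene entries of the count tables. They were 7 genes of the mevalonate branch (Acat2, Hmgcs1, Mvk, Pmvk, Mvd, Idi1, Fdps), 11 of the sterol branch (Fdft1, Sqle, Lss, Cyp51, Tm7sf2, Msmo1, Nsdhl, Hsd17b7, Ebp, Sc5d, Dhcr7), 5 of SREBP control (Insig1, Insig2, Scap, Srebf1, Srebf2), 3 of sterol transport (Stard4, Abca1, Abcg1) and 3 of fatty acid synthesis (Fasn, Scd1, Scd2). All 29 were found, and all 29 passed the filter on low counts that left 13665 genes for testing.

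Cells build cholesterol from acetyl-CoA through mevalonate, farnesyl diphosphate, squalene and lanosterol. SREBP2, made from Srebf2, is a membrane-bound transcription factor that raises the genes of this route. SCAP escorts SREBPs to the Golgi, where proteases release the active part, and the INSIG proteins hold SCAP back in the endoplasmic reticulum when sterols are plentiful. SREBP1, made from Srebf1, acts more on fatty acid genes such as Fasn, Scd1 and Scd2, whereas the sterol exporters Abca1 and Abcg1 are targets of the liver X receptors, which oxysterols activate. RelA is the NF-kB subunit that TNF brings into the nucleus and that carries transactivation domains at its C-terminal end.

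All libraries came from p53-/-crel-/-rela-/- mouse embryonic fibroblasts (MEFs) of C57BL/6 embryos, called primary in the labels, so every group, the controls included, lacked p53, c-Rel and its own RelA. The retroviral plasmid pBABE-puro carried no insert (Empty Vector, EV), RelA-dTAD, RelA-dTA1 or RelA-WT, with 2 libraries per time for each of these 4 constructs. For another 7 constructs there was 1 library per time: RelA-TA2_CI_S467A-dTA1, RelA-TA2_CI-dTA1, RelA-TA2_S467A, RelA-TA2_CI, RelA-TA2_CI_S467A, RelA-dCterm and RelA-DB. The labels give these names without describing the proteins, and do not say whether a line was 1 clone or a pool of infected cells. The cells were kept overnight in medium with 0.5% bovine calf serum and were taken at 0 h without TNF and at 0.5, 1, 3 and 8 h of TNF at 10 ng/ml. No cells without TNF were taken at the later times, so each TNF response also holds any change with time alone.

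The 75 libraries are in 2 deposited count tables, called set 1 (30 libraries) and set 2 (45 libraries). Replicate 1 of EV, RelA-dTAD, RelA-dTA1 and RelA-WT is in set 1, and replicate 2 is in set 2. The labels do not say whether replicates were separate cultures, and p-values therefore cover no more than the variation among these libraries, which may be technical. Total counts were 4422396 to 6915919 reads per library in set 1 and 10440202 to 22908738 in set 2. Rela itself, which checks the labels, had 15.6 to 30.4 CPM (the reads of a gene scaled for the size of each library) in the 10 EV libraries, against 531 to 6657 CPM in the 65 libraries with a RelA construct. The 10 fibroblast markers summed to 36000 to 56000 CPM in every library, while 4 macrophage markers summed to at most 2.21 CPM and 3 hepatocyte markers to at most 0.396 CPM.

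The promoters of the genes that the results below turn on are shown first, because SREBPs act through the sterol regulatory element (SRE) together with NF-Y, which binds CCAAT. Windows from 250 bases before to 50 bases after the transcription start came from RefSeq (GRCm38.p6), and 22 of the 29 genes matched an entry. Capitals mark the SRE, searched as TCACNCCAC, and CCAAT, each on both strands, so that ATTGG is a CCAAT on the other strand. Hmgcs1 (chr13:119690101-119690400, + strand), Mvd (chr8:122443373-122443672, minus strand), Msmo1 (chr8:64733529-64733828, minus strand) and Abca1 (chr4:53159846-53160145, minus strand) are written 5′ to 3′.
Hmgcs1: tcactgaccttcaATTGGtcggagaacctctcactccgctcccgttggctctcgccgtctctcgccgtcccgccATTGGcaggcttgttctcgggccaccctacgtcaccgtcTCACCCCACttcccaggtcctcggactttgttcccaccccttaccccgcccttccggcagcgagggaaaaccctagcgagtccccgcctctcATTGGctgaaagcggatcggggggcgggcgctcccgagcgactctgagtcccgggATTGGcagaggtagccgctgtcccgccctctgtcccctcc
Mvd: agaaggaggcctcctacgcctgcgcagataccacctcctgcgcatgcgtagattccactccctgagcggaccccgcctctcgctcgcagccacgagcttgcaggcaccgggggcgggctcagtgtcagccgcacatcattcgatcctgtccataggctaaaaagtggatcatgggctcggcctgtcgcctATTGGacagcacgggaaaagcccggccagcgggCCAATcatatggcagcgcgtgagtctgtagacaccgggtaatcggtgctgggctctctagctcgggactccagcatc
Msmo1: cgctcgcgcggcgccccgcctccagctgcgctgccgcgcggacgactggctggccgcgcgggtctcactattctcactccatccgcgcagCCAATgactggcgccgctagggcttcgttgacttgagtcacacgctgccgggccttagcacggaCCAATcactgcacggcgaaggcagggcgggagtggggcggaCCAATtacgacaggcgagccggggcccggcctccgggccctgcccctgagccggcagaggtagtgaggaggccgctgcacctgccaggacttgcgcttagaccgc
Abca1: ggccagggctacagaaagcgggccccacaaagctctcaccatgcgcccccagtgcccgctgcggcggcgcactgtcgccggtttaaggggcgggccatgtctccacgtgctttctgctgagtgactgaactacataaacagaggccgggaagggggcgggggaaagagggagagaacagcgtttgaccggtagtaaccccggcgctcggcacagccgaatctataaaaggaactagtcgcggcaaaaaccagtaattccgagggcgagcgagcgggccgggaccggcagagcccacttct

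The Hmgcs1 window held 1 SRE and 4 CCAAT, the Mvd window 2 CCAAT and the Msmo1 window 3 CCAAT, while the Abca1 window held none of either. Among all 22 genes with a window, CCAAT was found in 19, and at least 1 CCAAT was in 20 of their 30 windows, against 37.4% of the 32851 RefSeq windows of the same length. GGGCGG, the letters of the Sp1 site, was found in 20 genes and 24 of 30 windows, against 35.7% of all windows. The exact SRE letters were found in Hmgcs1 only (1 of 30 windows), against 1.24% of all windows. With 1 mismatch they were in 10 genes and 10 of 30 windows, against 24.2% of all windows. The NF-kB letters (GGGA, any 2 bases, TTCC) were in none of the 22 genes and in 1.47% of all windows. Motifs were counted separately whether or not they shared bases, and no SRE shares a base with a CCAAT in the 4 windows shown. A match describes the letters and not a bound site.

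Before TNF, Scd2, a stearoyl-CoA desaturase, was the most abundant of the 29 per length in RelA-WT cells, at 480 ± 70.4 CPM per kilobase (SD, n = 2). Hmgcs1, the synthase that makes HMG-CoA, followed at 125 ± 29.7 and Scd1, the paralog of Scd2, at 98.8 ± 11.4 CPM per kilobase. Srebf2 stood at 68.9 ± 7.52 and Cyp51, the lanosterol demethylase, at 66.0 ± 11.5. The SDs of these 2 genes overlapped, as did those of Hmgcs1 and Scd1, but they also hold the difference between the sets. Within the sets Hmgcs1 lay above Scd1, at 104 against 90.8 in set 1 and 146 against 107 in set 2. Srebf2 was at 63.6 against 57.9 for Cyp51 in set 1, and both were at 74.2 in set 2. At the low end were Abca1 at 4.43 ± 1.85, Tm7sf2 at 4.26 ± 1.03, Idi1 at 0.992 ± 0.372 and Abcg1 at 0.0776 ± 0.0542 CPM per kilobase. Abcg1 had no read in 13 of the 75 libraries, so its changes rest on few reads.

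The 0 h levels of the 29 genes did not pass the test in EV, RelA-dTAD or RelA-dTA1 cells against RelA-WT. In edgeR's quasi-likelihood test, used throughout with Benjamini-Hochberg adjustment over 13665 genes and a threshold of 0.05, 0 of 29 were called in each of these comparisons, as in DESeq2. Of all genes, 0.563% were called in EV, 0.0293% in RelA-dTAD and 0.0% in RelA-dTA1 cells. At an unadjusted p under 0.05 there were 1, 0 and 9 genes of the list in EV, RelA-dTAD and RelA-dTA1 cells. Their median log2 difference was -0.21 in EV, -0.075 in RelA-dTAD and -0.27 in RelA-dTA1 cells, with 26, 24 and 26 of 29 below 0. All genes together had medians between -0.014 and -0.001. In bulk RNA, fewer cells of a type and less RNA per cell cannot be told apart, here and in all results that follow.

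The largest changes of the module were at 8 h of TNF, in the cells without RelA and in those with RelA-dTAD. Most mevalonate genes were lower there, as were Stard4, Abca1, Scd1 and Scd2, while Insig2 and Scap were higher. Of the sterol branch only 3 of 11 genes were lower in EV cells and 5 of 11 in RelA-dTAD cells. In EV cells 13 of 29 genes fell and 2 rose, where 23.1% of all genes fell and 25.6% rose (48.7% in either direction). In RelA-dTAD cells 16 of 29 fell and 2 rose, where 22.5% of all genes fell and 24.4% rose (46.9% in either direction). In RelA-dTA1 cells 3 fell and 3 rose, with 15.3% of all genes lower and 19.4% higher (34.6%), and in RelA-WT cells 2 fell and 1 rose, with 11.6% lower and 15.8% higher (27.4%). Among those that rose in RelA-dTA1 cells was Abcg1, which passed the filter on low counts only through libraries of that construct. With the set as a block, 6 of 29 fell and 2 rose in RelA-WT cells, where 21.7% of all genes fell and 23.1% rose (44.8%), and no other of these counts moved by more than 1.5 times. In the fit without the block the share of the list that fell was above that of all genes in EV and RelA-dTAD cells and below it in RelA-dTA1 and RelA-WT cells, and with the block it was near that of all genes in RelA-WT cells. Rela moved with the 8 h result too. It was at 3883 and 6657 CPM at 8 h, against 1121 and 1796 CPM at 0 h, in RelA-dTAD cells (1.87 ± 0.35 SE, adjusted p = 0.000113), and at 1775 and 2594 CPM, against 847 and 1452 CPM, in RelA-dTA1 cells (0.93 ± 0.34 SE, adjusted p = 0.0378). In RelA-WT cells Rela was at 1483 and 1773 CPM at 8 h, against 1149 and 1474 CPM at 0 h (0.31 ± 0.34 SE, adjusted p = 0.552), and its part in the result was not tested.

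All 13 genes that fell in EV cells also fell in RelA-dTAD cells, where they made up 13 of 16. How many of all genes fell in both constructs was not counted. This overlap is therefore not read as a trait of the list. The 2 comparisons share no library, but 1 fit gave the spread for both, and same-numbered libraries deviated together. Without the block the 3 genes called lower in RelA-dTAD and not in EV cells were Ebp, Fdps and Lss, which in EV cells had log2 changes of -0.53, -0.44 and -0.32. Under the block Ebp (adjusted p = 0.000534) and Lss (adjusted p = 0.0314) were called lower in EV cells as well, and Ebp in RelA-dTA1 cells (adjusted p = 0.00017). Whether these 3 responses differ between EV and RelA-dTAD cells was not tested. The median log2 change at 8 h over the 29 genes was -0.52 in EV, -0.56 in RelA-dTAD, 0.013 in RelA-dTA1 and -0.061 in RelA-WT cells, beside medians of -0.015, -0.018, -0.019 and -0.032 over all genes. With Abcg1, which had 0 reads at 8 h in EV cells, set to the bound that 3 reads over the group allow, the EV median was -0.49. Leaving out 1 replicate moved these counts: without the set 2 EV libraries 6 genes were called in EV cells (10 without those of set 1), and without the set 2 RelA-dTAD libraries 7 were called in RelA-dTAD cells (16 without those of set 1). In RelA-dTA1 cells 1 gene was called without set 1. In EV cells Insig2, Mvk, Mvd, Scd2 and Scd1 were called in both of these refits, and in RelA-dTAD cells Insig2, Abca1, Mvd, Scap, Scd2, Scd1 and Nsdhl were; the other calls of both constructs were lost in at least 1 of them.

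**Figure D1:**
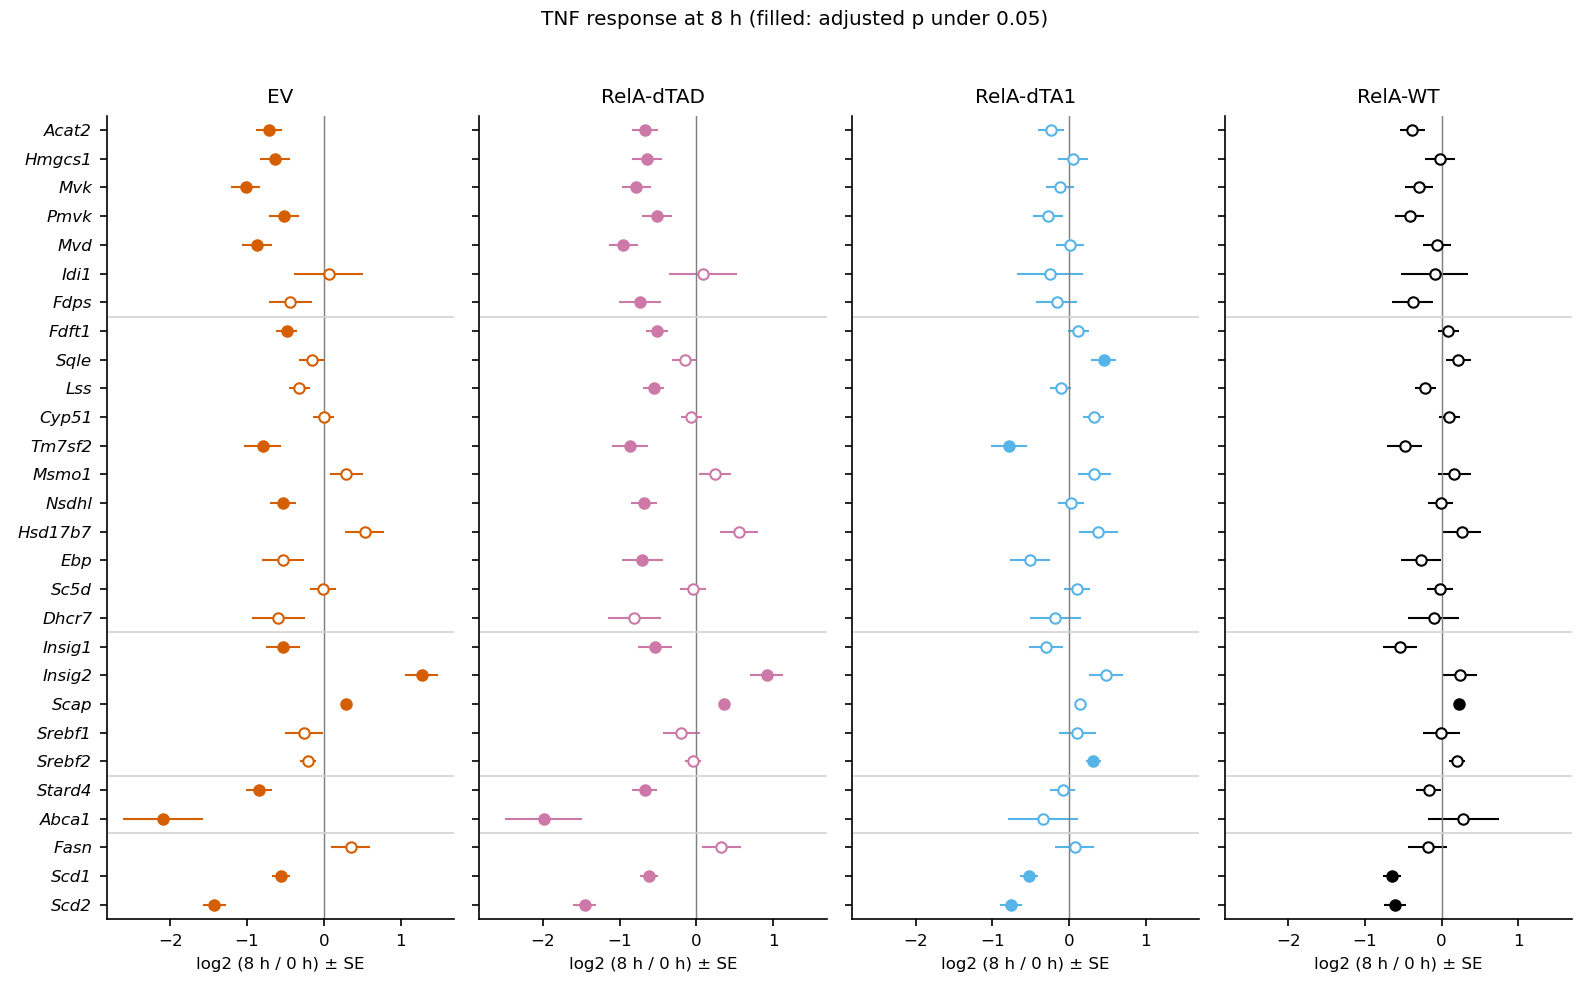
Log2 change at 8 h of TNF against 0 h (x axis, bars are ± SE, 2 libraries per time) for 28 genes (y axis, by role) in EV, RelA-dTAD, RelA-dTA1 and RelA-WT cells. Filled points passed the test; in EV and RelA-dTAD cells most filled points lie left of 0, down to -2.10 for Abca1, and Insig2 lies farthest right. Abcg1, with few reads, is left out.

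Sums of markers of some other cell types moved with the 8 h result in the same constructs. The 4 endothelial markers summed to 56.9 to 59.6 CPM at 8 h, against 30.3 to 39.3 CPM at 0 h, in EV cells, and to 50.2 to 57.1 CPM against 31.9 to 42.8 CPM in RelA-dTAD cells. In RelA-WT cells they summed to 34.9 to 40.7 CPM at 8 h, against 39.3 to 46.4 CPM at 0 h. The 5 adipocyte markers, of a cell type rich in lipid genes, summed to 16.5 to 17.0 CPM at 8 h, against 8.85 to 10.3 CPM at 0 h, in EV cells, and to 17.5 to 20.1 CPM against 9.89 to 13.2 CPM in RelA-dTAD cells. The 3 muscle markers summed to 5.26 to 7.66 CPM against 1.38 to 1.85 CPM in EV cells and to 2.65 to 3.17 CPM against 1.23 to 1.77 CPM in RelA-dTAD cells. These sums were higher at 8 h than at 0 h without overlap in EV and RelA-dTAD cells, and their part in the result was not tested. Single markers did not all rise. Fabp4 was called higher in EV (0.72, adjusted p = 0.0325) and RelA-dTAD cells (0.95, adjusted p = 0.00469). Kdr (1.01, adjusted p = 0.0158) and Des (2.03, adjusted p = 0.0135) were called in EV cells, and neither in RelA-dTAD cells (adjusted p = 0.0758 and 0.27). Tek and Pparg were called in neither construct, and the other markers of these types did not pass the filter on low counts. The 4 epithelial markers summed to 5.5 to 13.5 CPM at 8 h, against 3.32 to 5.3 CPM at 0 h, in EV cells, and overlapped in RelA-dTAD cells (5.3 to 9.63 CPM against 3.54 to 5.41 CPM). The adipocyte markers summed to 13.1 to 13.3 CPM at 8 h, against 10.4 to 11.8 CPM at 0 h, in RelA-dTA1 cells. In RelA-WT cells the macrophage markers summed to 1.01 to 1.82 CPM at 8 h, against 0.314 to 0.479 CPM at 0 h, and 1 of the 3 hepatocyte markers had no read in any library. Fibroblast markers summed to 45900 to 54300 CPM at 8 h, against 45600 to 47800 CPM at 0 h, in EV cells, and to 49000 to 53900 CPM against 44100 to 48400 CPM, without overlap, in RelA-dTAD cells. Single fibroblast markers moved both ways: Pdgfrb (-1.45, adjusted p = 1.73e-12), Prrx1 (-0.93, adjusted p = 2.17e-08), Pdgfra (-0.71, adjusted p = 0.0145) and Twist1 (-0.60, adjusted p = 0.0116) fell in EV cells on the log2 scale, while Thy1 (0.98, adjusted p = 7.42e-07) and Fn1 (0.82, adjusted p = 0.00741) rose. The same 6 of 10 were called in RelA-dTAD cells, by -1.08, -0.72, -0.70, -0.51, 1.06 and 0.95 in that order, and of the 10 Pdgfrb alone was called in RelA-dTA1 cells (-0.35) and none in RelA-WT cells. The part of these markers in the result was not tested.

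In the mevalonate branch, 5 of 7 genes fell at 8 h in EV cells and 6 of 7 in RelA-dTAD cells, while none was called in RelA-dTA1 or RelA-WT cells. Mvd, which decarboxylates mevalonate diphosphate (ENSMUSG00000006517.4, chr8:122433596-122443422, minus strand in mm10), stood at 22.9 and 24.8 CPM at 8 h, against 43.2 and 46.5 CPM at 0 h, in EV cells, the set 1 library first here and in all pairs below. It stood at 24.3 and 25.3 CPM at 8 h, against 51.4 and 46.2 CPM at 0 h, in RelA-dTAD cells. In both constructs the 8 h libraries lay below both 0 h libraries, and the log2 change was -0.87 ± 0.19 (SE, adjusted p = 0.000602) in EV cells and -0.95 ± 0.19 (SE, adjusted p = 0.000211) in RelA-dTAD cells. Mvd was at 45.3 and 37.9 CPM at 8 h, against 38.4 and 43.5 CPM at 0 h, in RelA-dTA1 cells. In RelA-WT cells Mvd was at 47.8 and 50.0 CPM at 8 h, against 40.6 and 60.7 CPM at 0 h, where the times overlapped.

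Mvk, the mevalonate kinase, was at 15.3 and 23.8 CPM at 8 h, against 38.7 and 44.5 CPM at 0 h, in EV cells. In RelA-dTAD cells Mvk was at 30.6 and 21.4 CPM at 8 h, against 47 and 42.3 CPM at 0 h. The 8 h libraries again lay below both 0 h libraries, with log2 changes of -1.02 ± 0.19 (SE, adjusted p = 0.00011) and -0.79 ± 0.19 (SE, adjusted p = 0.00134). Acat2, the cytosolic acetoacetyl-CoA thiolase at the start of the route, was at 42.3 and 34.1 CPM at 8 h, against 59.9 and 67.5 CPM at 0 h, in EV cells. In RelA-dTAD cells Acat2 was at 50.4 and 30.1 CPM at 8 h, against 67.5 and 59.8 CPM at 0 h. It fell by 0.72 ± 0.17 (SE, adjusted p = 0.00121) on the log2 scale in EV cells and by 0.67 ± 0.17 (SE, adjusted p = 0.00215) in RelA-dTAD cells. Without set 2 these changes of Acat2 were -0.49 and -0.40 and were not called, nor was that of Mvk in RelA-dTAD cells (-0.60). In RelA-WT cells Acat2 was at 54.7 and 58.8 CPM at 8 h, against 65.5 and 82 CPM at 0 h, without overlap, a change of -0.38 ± 0.17 (SE, adjusted p = 0.0889) that did not pass (adjusted p = 0.0441 with the set as a block).

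Hmgcs1 (ENSMUSG00000093930.1, chr13:119690462-119708086, + strand in mm10) showed an 8 h decrease that differed between the sets. It was at 254 and 179 CPM at 8 h, against 315 and 377 CPM at 0 h, in EV cells. In RelA-dTAD cells Hmgcs1 was at 303 and 186 CPM at 8 h, against 375 and 396 CPM at 0 h, so the set 2 libraries carried the larger part of the fall. The fitted change was -0.64 ± 0.20 (SE, adjusted p = 0.00909) in EV cells and -0.64 ± 0.20 (SE, adjusted p = 0.00947) in RelA-dTAD cells, and without the set 2 libraries it was -0.29 and -0.28 and was not called. Hmgcs1 was at 392 and 299 CPM at 8 h, against 298 and 370.4 CPM at 0 h, in RelA-dTA1 cells. In RelA-WT cells Hmgcs1 was at 407 and 389.9 CPM at 8 h, against 336 and 472 CPM at 0 h. The log2 change of Hmgcs1 was 0.052 in RelA-dTA1 cells and -0.021 in RelA-WT cells, neither called. Of the others, the kinase gene Pmvk fell in EV cells (-0.52 ± 0.20 SE, adjusted p = 0.0351) and RelA-dTAD cells (-0.51 ± 0.20 SE, adjusted p = 0.0355). Fdps, which makes farnesyl diphosphate, was at 13.1 and 8.31 CPM at 8 h, against 17.3 and 17.4 CPM at 0 h, in RelA-dTAD cells, a change of -0.73 ± 0.28 (SE, adjusted p = 0.0328). Without set 2 the RelA-dTAD changes were -0.38 for Fdps and -0.28 for Pmvk and were not called. In both constructs the call of Pmvk was lost without either set. Idi1, the isomerase, stayed at or under 4.78 CPM in all libraries of these 4 constructs and was called in none.

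In the sterol branch, 3 of 11 genes fell in EV cells, 5 of 11 in RelA-dTAD cells, and none in RelA-WT cells, while in RelA-dTA1 cells 1 fell and 1 rose. Fdft1, the squalene synthase (ENSMUSG00000021273.9, chr14:63145153-63177793, minus strand in mm10), was at 57.6 and 55.7 CPM at 8 h, against 82.6 and 80.1 CPM at 0 h, in EV cells. In RelA-dTAD cells Fdft1 was at 76.1 and 52.7 CPM at 8 h, against 102 and 82.5 CPM at 0 h. All 8 h libraries of both constructs lay below their 0 h libraries, with log2 changes of -0.49 ± 0.14 (SE, adjusted p = 0.00571) and -0.51 ± 0.14 (SE, adjusted p = 0.00355). The call was lost without either set in EV cells and without set 2 in RelA-dTAD cells. In RelA-WT cells Fdft1 was at 96.7 and 96.8 CPM at 8 h, against 91.2 and 90.8 CPM at 0 h, where both 8 h libraries lay above both 0 h libraries without passing the test (0.086 ± 0.14 SE, adjusted p = 0.692). Its exons overlap those of Ctsb on the opposite strand, which had 994449 reads against 78322 for Fdft1 over all libraries, so its counts are uncertain.

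Nsdhl, a sterol dehydrogenase of the C4 demethylation complex, was at 27.7 and 28.1 CPM at 8 h, against 43.4 and 39.4 CPM at 0 h, in EV cells. In RelA-dTAD cells Nsdhl was at 36.3 and 23.6 CPM at 8 h, against 57 and 39.1 CPM at 0 h. It fell in both, by 0.53 ± 0.17 (SE, adjusted p = 0.0127) and 0.68 ± 0.17 (SE, adjusted p = 0.00186) on the log2 scale, and the call in EV cells was lost without either set. Tm7sf2, a sterol C14 reductase, was at 7.17 and 8.91 CPM at 8 h, against 14.7 and 14.5 CPM at 0 h, in EV cells. In RelA-dTAD cells Tm7sf2 was at 8.77 and 7.06 CPM at 8 h, against 11.7 and 16.5 CPM at 0 h. In RelA-dTA1 cells Tm7sf2 was at 7.07 and 9.15 CPM at 8 h, against 12.8 and 15.6 CPM at 0 h. It fell in all 3, with log2 changes of -0.79 ± 0.24 (SE, adjusted p = 0.00831), -0.87 ± 0.24 (SE, adjusted p = 0.00393) and -0.78 ± 0.23 (SE, adjusted p = 0.0104). Without set 2 the RelA-dTAD change of Tm7sf2 was -0.39 and was not called, and in EV and RelA-dTA1 cells its call was lost without either set. In RelA-WT cells the change of Tm7sf2 was -0.48 ± 0.23 (SE, adjusted p = 0.124), which passed only with the set as a block (adjusted p = 0.0247). Tm7sf2 shares exon bases with Vps51 on the same strand, so its counts are uncertain too.

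Ebp, the sterol isomerase, was at 16.1 and 12.1 CPM at 8 h, against 27.7 and 18.5 CPM at 0 h, in RelA-dTAD cells, and fell by 0.70 ± 0.26 (SE, adjusted p = 0.0316) on the log2 scale. Lss, the lanosterol synthase, fell in RelA-dTAD cells as well (-0.56 ± 0.14 SE, adjusted p = 0.00181). The call of Ebp was lost without either set (-0.61 and -0.76), and that of Lss without set 2 (-0.49). Dhcr7, the reductase of the last step, was at 20.8 and 28.9 CPM at 8 h, against 31.7 and 45.8 CPM at 0 h, in EV cells. In RelA-dTAD cells Dhcr7 was at 20.6 and 24.2 CPM at 8 h, against 32.7 and 47 CPM at 0 h. Both 8 h libraries of Dhcr7 lay below both 0 h libraries in each construct, yet its levels differed between the sets, and the changes of -0.59 ± 0.35 and -0.81 ± 0.35 (SE) passed only with the set as a block (adjusted p = 4.79e-05 in EV cells and 1.02e-07 in RelA-dTAD cells, against 0.169 and 0.0572 without). Sqle, the squalene epoxidase and a rate-limiting enzyme of this branch, rose in RelA-dTA1 cells (0.45 ± 0.16 SE, adjusted p = 0.0357), where it was at 245 and 181 CPM at 8 h, against 142 and 170.1 CPM at 0 h. That rise came from set 1, and without it the change was 0.096 and was not called. In EV and RelA-dTAD cells the change of Sqle was -0.16 and -0.16, neither called.

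Cyp51, Msmo1, Hsd17b7 and Sc5d, enzymes between lanosterol and the last steps, were called in none of the 4 constructs at 8 h, except that Hsd17b7 passed in RelA-dTAD cells with the set as a block (0.55, adjusted p = 0.0458, against 0.073 without). Cyp51 was at 222 and 235 CPM at 8 h, against 221 and 248 CPM at 0 h, in EV cells, a fitted log2 change of 0.0, and its exons overlap those of Akap9 on the opposite strand. Msmo1, the methylsterol oxidase, was at 179.5 and 158 CPM at 8 h, against 121 and 161 CPM at 0 h, in EV cells, higher at 8 h in set 1 and level in set 2. Hsd17b7, a ketosteroid reductase, was at 76.5 and 68.3 CPM at 8 h, against 41.5 and 60.2 CPM at 0 h, in EV cells, a log2 change of 0.53 ± 0.25 (SE, adjusted p = 0.0836), larger in set 1 as well.

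The genes of SREBP control did not move together. Insig2, which retains SCAP (ENSMUSG00000003721.12, chr1:121304353-121332589, minus strand in mm10), was at 99.9 and 73 CPM at 8 h, against 40.3 and 33 CPM at 0 h, in EV cells. In RelA-dTAD cells Insig2 was at 81 and 61.9 CPM at 8 h, against 43.4 and 33.5 CPM at 0 h. All 8 h libraries lay above all 0 h libraries of the same construct, with log2 changes of 1.27 ± 0.22 (SE, adjusted p = 3.36e-05) and 0.92 ± 0.22 (SE, adjusted p = 0.00119). In RelA-dTA1 cells Insig2 was at 51.3 and 44.3 CPM at 8 h, against 37.7 and 31.1 CPM at 0 h. In RelA-WT cells Insig2 was at 41.3 and 41.8 CPM at 8 h, against 39.8 and 31.1 CPM at 0 h. Again the times did not overlap, but the increases of 0.48 ± 0.22 and 0.24 ± 0.22 (SE) in RelA-dTA1 and RelA-WT cells passed only with the set as a block (adjusted p = 4.27e-05 and 0.023, against 0.0897 and 0.464 without).

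Insig1, a target of SREBP as well as a brake on it, went the other way. It was at 92.3 and 56 CPM at 8 h, against 103 and 114 CPM at 0 h, in EV cells. In RelA-dTAD cells Insig1 was at 102 and 58.6 CPM at 8 h, against 121 and 113 CPM at 0 h. In RelA-dTA1 cells Insig1 was at 97.8 and 63.4 CPM at 8 h, against 90.3 and 106 CPM at 0 h. In RelA-WT cells Insig1 was at 92.4 and 82.3 CPM at 8 h, against 114 and 139.7 CPM at 0 h. The fall was larger in set 2 than in set 1 in all 4 constructs, and in RelA-dTA1 cells the set 1 library at 8 h was above that at 0 h. The log2 change just passed in EV cells (-0.53 ± 0.22 SE, adjusted p = 0.0495) and RelA-dTAD cells (-0.54 ± 0.22 SE, adjusted p = 0.0445), and passed in RelA-WT cells only with the set as a block (-0.54 ± 0.22 SE, adjusted p = 0.0359, against 0.0654 without). Without the set 2 libraries the change was -0.14 in EV cells and -0.23 in RelA-dTAD cells, and it was not called.

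Scap, the SREBP escort, was at 124 and 119 CPM at 8 h, against 99.9 and 104 CPM at 0 h, in EV cells. In RelA-dTAD cells Scap was at 119 and 122 CPM at 8 h, against 92.2 and 97.4 CPM at 0 h. In RelA-WT cells Scap was at 111 and 111 CPM at 8 h, against 98.3 and 90.8 CPM at 0 h. It rose slightly in all 3, by 0.29 ± 0.069, 0.36 ± 0.069 and 0.23 ± 0.069 on the log2 scale (SE), with adjusted p = 0.00136, 0.000128 and 0.0142. Without set 1 the call was lost in EV cells (0.22), and without either set in RelA-WT cells (0.30 without set 1, 0.18 without set 2). Srebf1 was at 86.3 and 101 CPM at 8 h, against 99.2 and 130.1 CPM at 0 h, in EV cells. In RelA-WT cells Srebf1 was at 109.6 and 131 CPM at 8 h, against 104 and 137 CPM at 0 h, and was called in no construct at any time. Srebf1 passed with the set as a block in EV cells (-0.26, adjusted p = 0.00398) and RelA-dTAD cells (-0.20, adjusted p = 0.0218) at 8 h. Srebf1 overlaps Rai1 on the opposite strand, so reads of the pair may be mixed.

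Among sterol transport genes, Abca1, which exports cholesterol to apolipoprotein A-I (ENSMUSG00000015243.4, chr4:53030787-53159895, minus strand in mm10), had the largest 8 h decrease in EV and RelA-dTAD cells among the genes other than Abcg1. It was at 16.5 and 7.77 CPM at 8 h, against 54.6 and 45.3 CPM at 0 h, in EV cells. In RelA-dTAD cells Abca1 was at 14.7 and 11 CPM at 8 h, against 62.7 and 38.9 CPM at 0 h. All 8 h libraries lay far below all 0 h libraries, with log2 changes of -2.10 ± 0.52 (SE, adjusted p = 0.00186) and -1.99 ± 0.50 (SE, adjusted p = 0.00222). In RelA-dTA1 cells Abca1 was at 42.4 and 52.1 CPM at 8 h, against 75.7 and 46.5 CPM at 0 h. In RelA-WT cells Abca1 was at 69.3 and 42.1 CPM at 8 h, against 59.4 and 32.3 CPM at 0 h. The changes were -0.34 ± 0.45 (SE, adjusted p = 0.606) and 0.28 ± 0.46 (SE, adjusted p = 0.706) in RelA-dTA1 and RelA-WT cells, with overlap between the times in both. The call in EV cells was lost without set 2 (-1.71).

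Abca1 in RelA-WT cells was highest at 3 h, at 59.4 and 32.3 CPM at 0 h, 49.5 and 39.8 at 0.5 h, 58.8 and 36.1 at 1 h, 81.5 and 65 at 3 h and 69.3 and 42.1 CPM at 8 h. Both 3 h libraries lay above both 0 h libraries, and the change of 0.70 ± 0.46 (SE) passed only with the set as a block (adjusted p = 0.0183, against 0.361 without). In EV cells Abca1 was at 54.6 and 45.3, 75.5 and 42, 81 and 45.9, 51.8 and 31.3 and 16.5 and 7.77 CPM at 0, 0.5, 1, 3 and 8 h. In RelA-dTAD cells Abca1 was at 43.1 and 21.6 CPM at 3 h, so at that time both EV and both RelA-dTAD libraries lay below both RelA-WT libraries. The 3 h response differed from that of RelA-WT cells by -0.97 ± 0.65 (SE, adjusted p = 0.765) in EV and -1.37 ± 0.66 (SE, adjusted p = 0.47) in RelA-dTAD cells, and the difference passed under the block in RelA-dTAD cells (adjusted p = 0.00654, against 0.0515 in EV cells). In EV cells both 8 h libraries lay below both 3 h libraries.

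**Figure D2:**
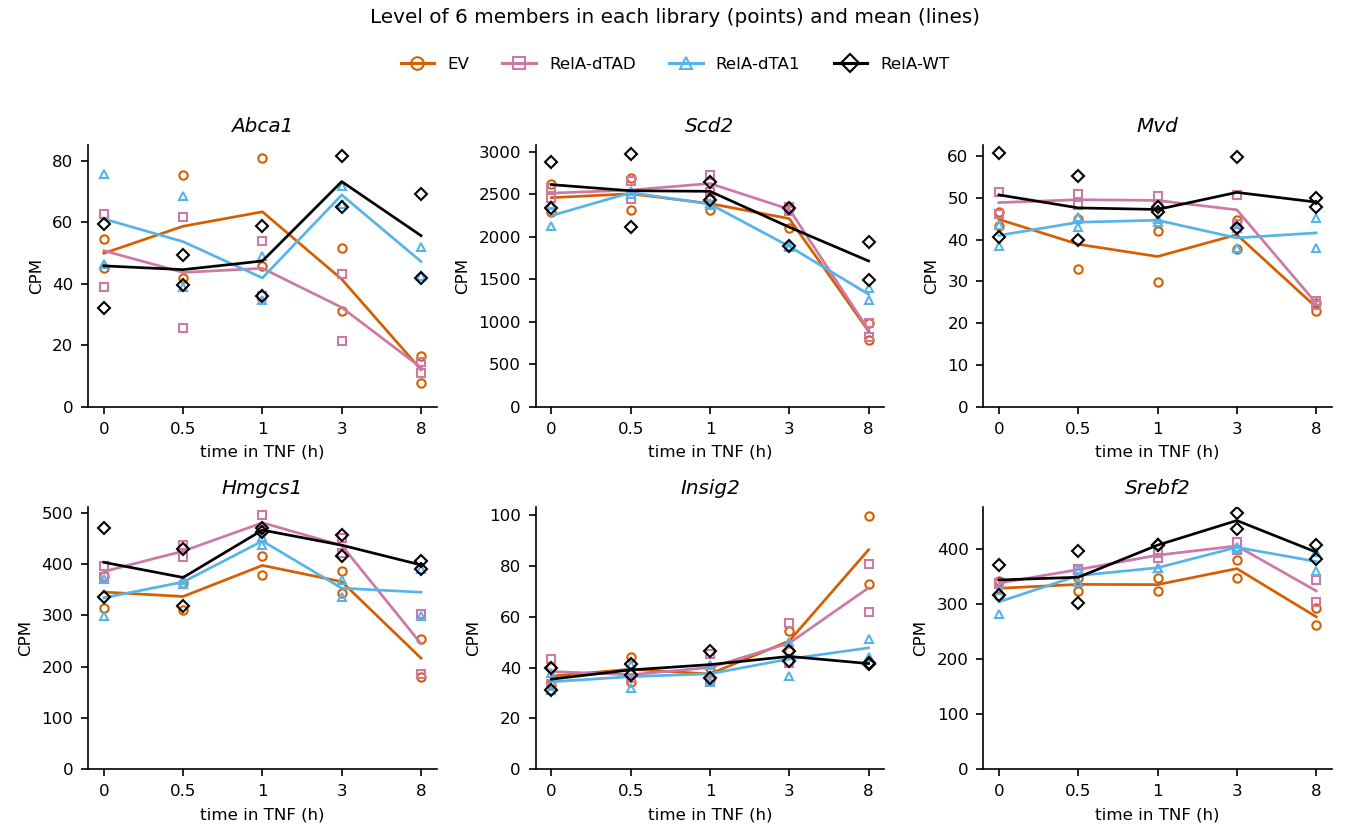
CPM (y axis, linear, from 0) of Abca1, Scd2, Mvd, Hmgcs1, Insig2 and Srebf2 over 0, 0.5, 1, 3 and 8 h of TNF (x axis, times evenly spaced) in EV, RelA-dTAD, RelA-dTA1 and RelA-WT cells; points are single libraries of set 1 and set 2, lines join the means. At 8 h the EV and RelA-dTAD means of Abca1, Scd2, Mvd, Hmgcs1 and Srebf2 lie below those of RelA-WT cells and the Insig2 means above, and the Abca1 libraries are apart already at 3 h.

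Stard4, a sterol carrier between membranes and an SREBP2 target, was at 55 and 45.7 CPM at 8 h, against 83.8 and 100.1 CPM at 0 h, in EV cells. In RelA-dTAD cells Stard4 was at 81.6 and 50.0 CPM at 8 h, against 106 and 103 CPM at 0 h. It fell in both, with log2 changes of -0.85 ± 0.17 (SE, adjusted p = 0.000198) and -0.67 ± 0.17 (SE, adjusted p = 0.00167), and without set 2 the changes were -0.59 and -0.36 and were not called. In RelA-WT cells Stard4 was at 96.1 and 94.8 CPM at 8 h, against 90.8 and 122 CPM at 0 h, a change of -0.17. Abcg1, which exports cholesterol to HDL, had 5 and 34 reads at 8 h, against 2 and 9 reads at 0 h, in RelA-dTA1 cells, a log2 change of 1.93 ± 0.61 (SE, adjusted p = 0.0164) that was lost in DESeq2 and without set 1. Abcg1 passed the filter on low counts only through the set 2 libraries of RelA-dTA1 cells, with 25 reads at 3 h and 34 at 8 h. The gene was thus let into the test by the construct where it is high, so this call is no support for a rise. Abcg1 had 0 reads at 8 h in both EV libraries, against 1 and 3 reads at 0 h. With a floor of 3 reads over the 8 h group this is 1.07-fold lower. That value leaves out the counting error of the 0 h reads, so these reads show no decrease. In RelA-dTAD cells Abcg1 had 1 and 1 reads at 8 h, against 2 and 4 reads at 0 h. In RelA-WT cells there were 4 and 8 reads at 8 h, against 1 and 6 reads at 0 h, a log2 change of 0.90 ± 0.76 (SE) that did not pass.

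The fatty acid desaturases Scd1 and Scd2 were the only genes of the list that fell at 8 h in all 4 constructs in the fit without the block; under the block Tm7sf2 was called lower in all 4 as well. Scd2 (ENSMUSG00000025203.5, chr19:44293676-44306864, + strand in mm10) was at 793 and 990.2 CPM at 8 h, against 2299 and 2626 CPM at 0 h, in EV cells. In RelA-dTAD cells Scd2 was at 984 and 827 CPM at 8 h, against 2571 and 2460.0 CPM at 0 h. In RelA-dTA1 cells Scd2 was at 1256 and 1395 CPM at 8 h, against 2128 and 2373 CPM at 0 h. In RelA-WT cells Scd2 was at 1496 and 1939 CPM at 8 h, against 2344 and 2887 CPM at 0 h. The 8 h and 0 h libraries overlapped in none of them, and the log2 change was -1.43 ± 0.15 (SE, adjusted p = 2.77e-08) in EV, -1.45 ± 0.15 (SE, adjusted p = 2.48e-08) in RelA-dTAD, -0.76 ± 0.15 (SE, adjusted p = 0.000276) in RelA-dTA1 and -0.61 ± 0.15 (SE, adjusted p = 0.00277) in RelA-WT cells. Scd1 was at 249.8 and 317 CPM at 8 h, against 408 and 451 CPM at 0 h, in EV cells. In RelA-dTAD cells Scd1 was at 295 and 276 CPM at 8 h, against 466.9 and 418 CPM at 0 h. In RelA-dTA1 cells Scd1 was at 269 and 276 CPM at 8 h, against 392 and 394 CPM at 0 h. In RelA-WT cells Scd1 was at 271 and 341 CPM at 8 h, against 439 and 517 CPM at 0 h. Its log2 changes lay closer together, at -0.56 ± 0.12 in EV, -0.61 ± 0.12 in RelA-dTAD, -0.52 ± 0.12 in RelA-dTA1 and -0.65 ± 0.12 in RelA-WT cells (SE), with adjusted p = 0.000329, 0.000145, 0.00124 and 0.000185. Without set 1 the call of Scd1 was lost in RelA-dTA1 cells (-0.51). Scd1 and Scd2 are paralogs that lie side by side on chromosome 19, so short reads of 1 may have been counted for the other. Fasn, the fatty acid synthase, was at 558 and 577 CPM at 8 h, against 360.0 and 552 CPM at 0 h, in EV cells. In RelA-WT cells Fasn was at 452 and 469.6 CPM at 8 h, against 425 and 619 CPM at 0 h, and was called in no construct.

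The difference of the 8 h response from that of RelA-WT cells was then tested itself, as the interaction of construct and time. In EV cells 5 of 29 genes responded lower and 1 higher than in RelA-WT cells, where 7.9% of all genes were lower and 9.67% higher (17.6%). The lower ones were Abca1 (-2.38 ± 0.70 SE, adjusted p = 0.0188), Scd2 (-0.82 ± 0.21 SE, adjusted p = 0.00659), Mvd (-0.81 ± 0.27 SE, adjusted p = 0.0359), Stard4 (-0.68 ± 0.23 SE, adjusted p = 0.0455) and Fdft1 (-0.57 ± 0.20 SE, adjusted p = 0.043). Insig2 was the higher one (1.04 ± 0.31 SE, adjusted p = 0.0204). In RelA-dTAD cells 4 of 29 were lower and none higher, where 5.8% of all genes were lower and 6.45% higher (12.2%). These were Abca1 (-2.27 ± 0.68 SE, adjusted p = 0.0291), Mvd (-0.89 ± 0.26 SE, adjusted p = 0.0262), Scd2 (-0.84 ± 0.21 SE, adjusted p = 0.0074) and Fdft1 (-0.60 ± 0.19 SE, adjusted p = 0.043). Both comparisons share the RelA-WT libraries, and all 10 calls were lost in at least 1 refit without a replicate: 1 to 4 genes were called in EV cells (1 without RelA-WT set 1, 2 without EV set 1 or set 2) and 0 to 4 in RelA-dTAD cells (0 without RelA-dTAD set 2, 1 without RelA-WT set 1, 2 without RelA-WT set 2).

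With the set as a block, 9 of 29 genes were lower and 1 higher in EV cells, where 15.2% of all genes were lower and 18.3% higher (33.5%). In RelA-dTAD cells 7 of 29 were lower and 1 higher in that fit, where 12.9% of all genes were lower and 14.9% higher (27.8%). The values of the Mvd difference lay between -1.16 and -0.62 in the 4 refits for EV cells that left out 1 replicate. The response of Hmgcs1 differed from that of RelA-WT cells by -0.62 ± 0.28 (SE, adjusted p = 0.132) in EV cells and by -0.62 ± 0.28 (SE, adjusted p = 0.161) in RelA-dTAD cells, which did not pass. For Scd1 the difference was 0.082 ± 0.17 (SE, adjusted p = 0.819) in EV cells and 0.033 ± 0.17 (SE, adjusted p = 0.955) in RelA-dTAD cells, and for Insig1 it was 0.013 ± 0.31 (SE, adjusted p = 0.992) and 0.002 ± 0.31 (SE, adjusted p = 1.0).

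In RelA-dTA1 cells no gene of the list passed the test of a difference from the RelA-WT response at 8 h, nor did any of all 13665 genes (0.0%). In edgeR's test 0 genes of the list had an unadjusted p under 0.05, and DESeq2 called 0. The differences were -0.62 ± 0.65 (SE, adjusted p = 1.0) for Abca1, -0.15 ± 0.21 (SE, adjusted p = 1.0) for Scd2 and 0.074 ± 0.26 (SE, adjusted p = 1.0) for Mvd. With 2 libraries per group these intervals are wide, and a p that misses the threshold does not show that the responses are alike.

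**Figure D3:**
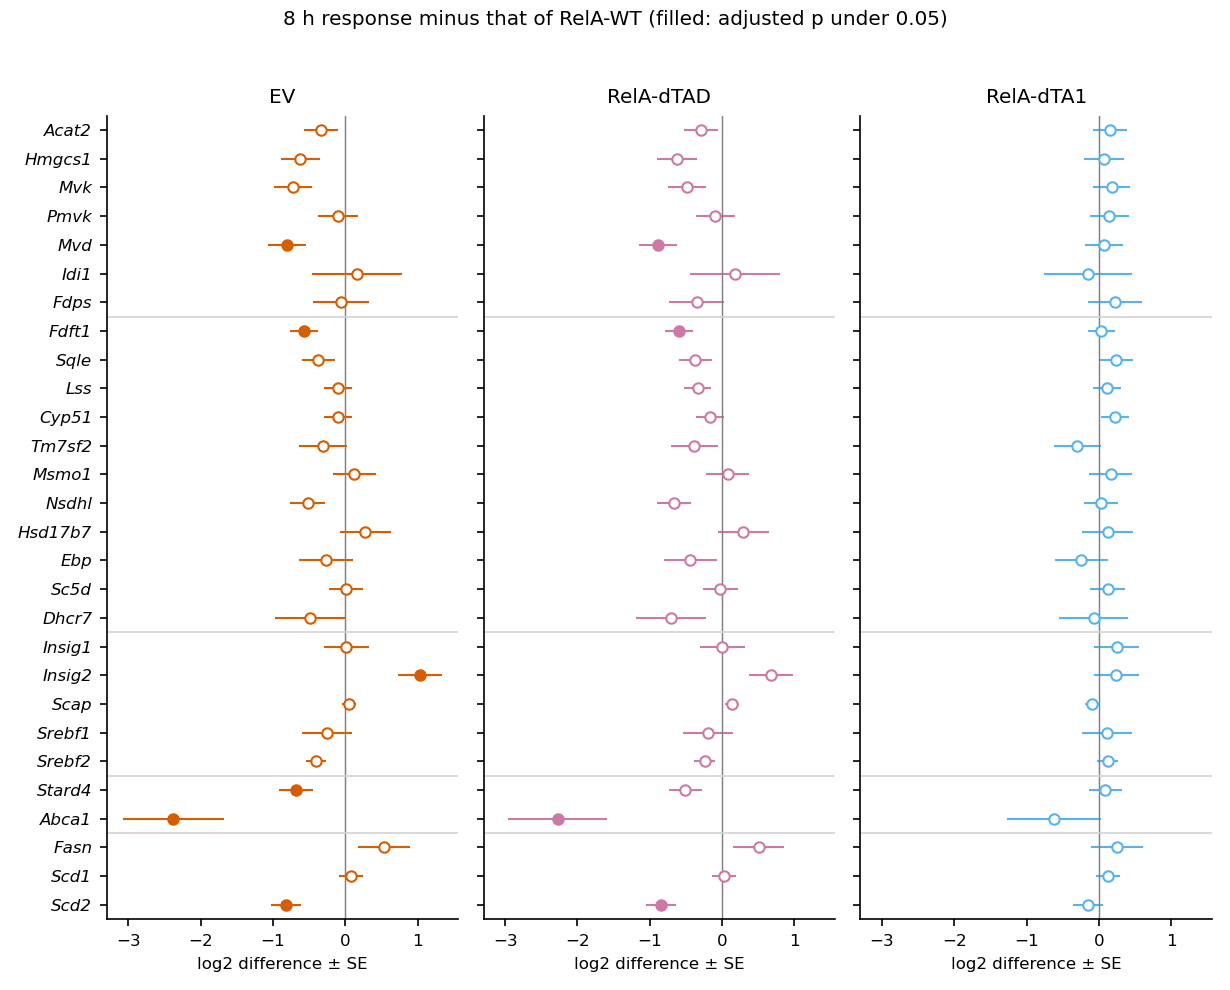
Difference of the 8 h log2 response from that of RelA-WT cells (x axis, bars are ± SE) for 28 genes (y axis) in EV, RelA-dTAD and RelA-dTA1 cells; filled points passed the test. Abca1 lies farthest left in EV cells (-2.38) and RelA-dTAD cells (-2.27), Insig2 to the right in EV cells (1.04), and no point is filled for RelA-dTA1 cells. Abcg1, with few reads, is left out.

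Levels at 8 h, which add any difference at 0 h to that of the responses, set EV and RelA-dTAD cells apart from RelA-WT cells in more genes. In EV cells 14 of 29 genes were lower and 1 higher than in RelA-WT cells, where 15.2% of all genes were lower and 17.2% higher (32.4%). In RelA-dTAD cells 10 were lower and 1 higher, with 11.5% of all genes lower and 13.2% higher (24.7%; with the set as a block 18 lower and 1 higher, where 19.1% of all genes were lower and 22.1% higher, 41.2% in either direction). In RelA-dTA1 cells none was called (0.00732% of all genes, with 2 of the list at an unadjusted p under 0.05 and 0 in DESeq2). Yet all 7 mevalonate and all 11 sterol genes lay below RelA-WT cells there, with median log2 differences of -0.254 and -0.268, against 0.003 over all genes. Of the other roles, 3 of 5 genes of SREBP control, 2 of 3 of sterol transport and 2 of 3 of fatty acid synthesis lay below. The higher gene was Insig2 in both, by 1.07 ± 0.22 (SE, adjusted p = 0.000442) in EV and 0.80 ± 0.22 (SE, adjusted p = 0.00812) in RelA-dTAD cells. Lower in EV cells were, beyond those already named, Hmgcs1 (-0.86 ± 0.20 SE, adjusted p = 0.00143), Nsdhl (-0.75 ± 0.17 SE, adjusted p = 0.00146), Sqle (-0.56 ± 0.17 SE, adjusted p = 0.0105) and Cyp51 (-0.43 ± 0.14 SE, adjusted p = 0.0178). Srebf2 was at 262 and 292 CPM at 8 h in EV cells, against 382 and 407 CPM in RelA-WT cells, without overlap (-0.49 ± 0.10 SE, adjusted p = 0.000646). Abcg1 had 0 reads in EV cells, against 4 and 8 in RelA-WT cells. With a floor of 3 reads over the EV group it was 3.24-fold lower, a value that leaves out the counting error of the RelA-WT reads. Each refit left out 1 replicate of 1 construct, so without the set 2 libraries of EV or RelA-dTAD the RelA-WT libraries of both sets stayed in. Without them the difference was -0.65 in EV and -0.38 in RelA-dTAD cells for Hmgcs1. For Acat2 it was -0.42 and -0.15, and these calls of both genes were lost. Insig2, Mvk, Mvd, Fdft1, Srebf2, Stard4, Scd2 and Nsdhl kept their call in EV cells in each refit, and the other calls there were lost in at least 1.

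The earlier times held few calls. At 0.5 h and 1 h, 0 of 29 genes were called in any of the 4 constructs by edgeR or DESeq2, while of all genes some were. At 0.5 h these were 0.402% in EV, 0.439% in RelA-dTAD, 0.629% in RelA-dTA1 and 0.812% in RelA-WT cells. At 1 h the shares were 0.827% in EV, 0.549% in RelA-dTAD, 1.62% in RelA-dTA1 and 3.24% in RelA-WT cells. At an unadjusted p under 0.05 there were 2 genes at 0.5 h in RelA-dTA1 cells and 0 in the others, and at 1 h 0 in EV, 3 in RelA-dTAD, 7 in RelA-dTA1 and 1 in RelA-WT cells. At 1 h in RelA-dTA1 cells, both TNF libraries lay above both 0 h libraries for 20 of 29 genes, against 15.4% of all genes. In RelA-dTAD cells this held for 13 (13.1% of all genes), in EV cells for 5 (13.7%) and in RelA-WT cells for 1 (15.3%). The median log2 change at 1 h was 0.25 in RelA-dTA1, 0.12 in RelA-dTAD, 0.009 in EV and 0.028 in RelA-WT cells, with all genes at 0.001 to 0.004. With the set as a block, Fdft1, Nsdhl and Srebf2 passed at 1 h in RelA-dTA1 cells (3 of 29, with 4.68% of all genes). Hmgcs1, for example, was at 453 and 437 CPM at 1 h, against 298 and 370.4 CPM at 0 h, in RelA-dTA1 cells, and Insig1 at 153 and 129 CPM at 1 h, against 90.3 and 106 CPM at 0 h. All these genes share 2 libraries at 0 h, where all 7 mevalonate and all 11 sterol genes lay below RelA-WT cells. Mean CPM at 1 h in RelA-dTA1 and RelA-WT cells were 445 and 466 for Hmgcs1, 94.2 and 93.7 for Fdft1 and 43.7 and 46.5 for Mvk. The part of the 0 h levels in the 1 h result was not tested.

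At 3 h the only gene called was Srebf2, in RelA-dTA1 and RelA-WT cells, the source of SREBP2. In RelA-dTA1 cells it was at 282 and 326 CPM at 0 h, 339.9 and 363 at 0.5 h, 366 and 366 at 1 h, 402 and 404 at 3 h and 395 and 359 CPM at 8 h. In RelA-WT cells it was at 317 and 370.2, 301 and 396, 407 and 407, 437 and 466 and 382 and 407 CPM at the same times. The 3 h libraries lay above the 0 h libraries in both, with log2 changes of 0.42 ± 0.10 (SE, adjusted p = 0.00536) and 0.40 ± 0.10 (SE, adjusted p = 0.00745), where 14.4% and 16.3% of all genes were called. Without set 1 these were 0.33 in both and were not called. In RelA-dTAD cells the 3 h change of Srebf2 was 0.27 ± 0.10 (SE, adjusted p = 0.192, 0.0272 with the set as a block), and in EV cells it was 0.16 ± 0.10 (SE, adjusted p = 0.488). Whether the 3 h response of Srebf2 differed from that of RelA-WT cells was tested and did not pass, at -0.24 ± 0.14 (SE, adjusted p = 0.651) in EV and -0.13 ± 0.14 (SE, adjusted p = 1.0) in RelA-dTAD cells.

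Of all genes, 3.94% were called at 3 h in EV and 2.91% in RelA-dTAD cells, and 0 of the 29 there, with 1 and 3 at an unadjusted p under 0.05 and 0 in DESeq2. With the set as a block Insig2 passed at 3 h in all 4 constructs, at log2 changes of 0.47 in EV, 0.37 in RelA-dTAD, 0.35 in RelA-dTA1 and 0.34 in RelA-WT cells. In RelA-WT cells Mvk and Scd2 were also lower at 3 h in that fit (-0.43 and -0.30). By 8 h Srebf2 in RelA-dTA1 cells was still higher (0.32 ± 0.10 SE, adjusted p = 0.0182), and in RelA-WT cells its change was 0.20 ± 0.10 (SE, adjusted p = 0.163). In EV cells it was -0.21 ± 0.10 (SE, adjusted p = 0.0957), which passed with the set as a block (adjusted p = 0.0304). Without set 1 the RelA-dTA1 change was 0.15 and was not called. All times were also taken in 1 test, with the direction set by the sign of the mean change. That sign can oppose the change called at 8 h. Scap in EV cells counts as lower (mean -0.018) though it was called higher at 8 h. Hmgcs1 (mean 0.003) and Insig1 (mean 0.082) in RelA-dTAD cells count as higher though both were called lower at 8 h. In EV cells 12 genes were called lower and 1 higher, where 19.2% of all genes were lower and 23.5% higher (42.7%), and in RelA-dTAD cells 13 lower and 4 higher, where 17.5% were lower and 21.9% higher (39.4%). In RelA-dTA1 cells 4 were lower and 4 higher, Abcg1 among the higher (13.6% and 19.3% of all genes, 32.9% in either direction), and in RelA-WT cells 2 and 2 (12.8% and 18.4%, 31.2% in either direction). Under the block RelA-dTA1 cells had 15 (57.6% of all genes) and RelA-WT cells 10 (54.6%). Leaving out a replicate gave 5 to 6 genes in EV, 4 to 11 in RelA-dTAD, 2 in RelA-dTA1 and 1 to 4 in RelA-WT cells.

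The levels of this module differed between the 2 sets. Before TNF, Hsd17b7 was 1.45 times as high in set 2 as in set 1 in EV, 1.23 in RelA-dTAD, 1.34 in RelA-dTA1 and 1.83 in RelA-WT cells, and Msmo1 1.32, 1.1, 1.37 and 1.51 times. At 8 h in set 1 the log2 ratio to 0 h of Hsd17b7 was 0.88 in EV, 0.94 in RelA-dTAD, 0.75 in RelA-dTA1, 0.98 in RelA-DB, 0.77 in RelA-dCterm and 0.74 in RelA-WT cells. In set 2 it was 0.18 in EV, 0.14 in RelA-dTAD, 0.061 in RelA-dTA1 and -0.059 in RelA-WT cells. Within set 1 the median log2 ratio at 8 h over the 29 genes was -0.37 in EV, -0.36 in RelA-dTAD, 0.11 in RelA-dTA1 and 0.076 in RelA-WT cells, and within set 2 it was -0.51, -0.65, -0.20 and -0.17. The medians of EV and RelA-dTAD cells were below that of RelA-WT cells within each set. At or below a log2 ratio of -1 in set 1 were 4 of 29 genes in EV (16.4% of all genes), 3 in RelA-dTAD (14.4%) and 0 in RelA-WT cells (10.6%), which is no larger a share than that of all genes. In set 2 there were 6 in EV (12.1%), 6 in RelA-dTAD (10.3%) and 0 in RelA-WT cells (5.42%).

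The 7 constructs with 1 library per time are described without a test, against RelA-WT and EV of their own set. RelA-DB and RelA-dCterm, in set 1, had median log2 ratios at 8 h of -0.34 and -0.41. At or below -1 were Scd2, Abca1 and Ebp in RelA-DB (3 of 29, 17.8% of all 15090 genes) and Abca1, Scd2, Ebp and Mvk in RelA-dCterm cells (4 of 29, 15.7%), and at or above 1 was Insig2 in each (12.3% and 12.5%). Insig2 was at 89.1 CPM at 8 h, against 39 CPM at 0 h, in RelA-DB and at 88 CPM at 8 h, against 39.4 CPM at 0 h, in RelA-dCterm cells. Abca1 was at 23.4 CPM at 8 h, against 55.8 CPM at 0 h, in RelA-DB and at 16.6 CPM at 8 h, against 76.2 CPM at 0 h, in RelA-dCterm cells, log2 ratios of -1.25 and -2.19. In RelA-WT cells of the same set these ratios were 0.22 for Abca1 and 0.055 for Insig2 (10.6% of all genes at or below -1, 8.27% at or above 1), and in EV cells -1.72 and 1.31 (16.4% and 11.9%).

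In set 2, RelA-TA2_CI and RelA-TA2_S467A cells were near RelA-WT cells, with medians of -0.19 and -0.17, against -0.17 in RelA-WT cells. None of the 29 was at or below -1 in either (5.31% and 4.97% of all genes), and Abcg1, on 7 and 20 reads at 8 h, against 1 and 2 reads at 0 h, was the only one at or above 1 (6.26% and 5.64%). RelA-TA2_CI-dTA1 cells had a median of -0.58, with Abca1, Scd2 and Insig1 at or below -1 (10.3%) and none at or above 1 (8.81%). RelA-TA2_CI_S467A cells had a median of -0.58, with Scd2, Insig1 and Scd1 at or below -1 (7.11%) and Abcg1 at or above 1 (6.72%). Abca1 was higher at 8 h in that line, at 55.9 CPM at 8 h, against 40.9 CPM at 0 h, a ratio of 0.45.

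RelA-TA2_CI_S467A-dTA1 cells had the lowest median at 8 h of all 11 constructs, -0.80. That rank sets single libraries of 2 sets side by side, and the RelA-WT medians of these sets were 0.076 and -0.167. Each ratio of this line rests on 1 library at 0 h. Against that library the median was below 0 at the earlier times too, at -0.199, -0.143 and -0.115 at 0.5, 1 and 3 h. The part of the 0 h library in the result was not tested. At 8 h in this line 9 of 29 genes were at or below -1 (8.75% of all genes), namely Abca1, Scd2, Mvd, Insig1, Idi1, Mvk, Hmgcs1, Acat2 and Fdps, and Abcg1 was at or above 1 (7.55%). Hmgcs1 was at 225 CPM at 8 h, against 488 CPM at 0 h, and Mvd at 27.9 CPM at 8 h, against 65.7 CPM at 0 h. Their log2 ratios were -1.12 and -1.23, against -0.27 and -0.28 in RelA-WT cells and -1.07 and -0.91 in EV cells of set 2. In RelA-WT cells of set 2, 5.42% of all genes were at or below -1 and 5.79% at or above 1, and in EV cells 12.1% and 9.68%.

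**Figure D4:**
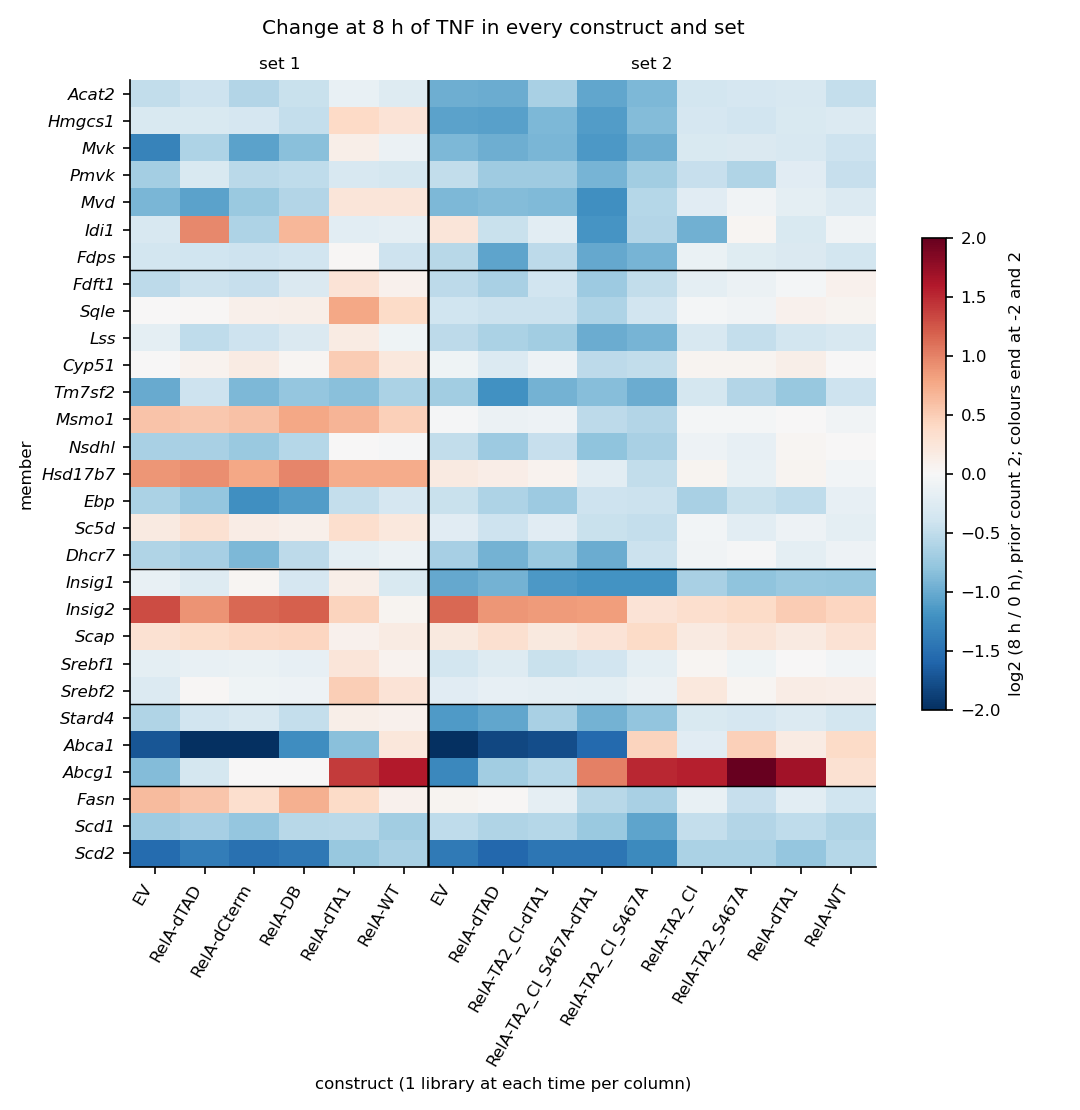
Log2 ratio of 8 h of TNF to 0 h (colour, clipped at -2 and 2, prior count 2) for the 29 genes (rows, by role) in the 11 constructs of set 1 and set 2 (columns, 1 library per time each). EV, RelA-dTAD, RelA-DB and RelA-dCterm columns are mostly blue with a red Insig2 row; Hsd17b7 and Msmo1 are red in the set 1 columns and near white in most set 2 columns.

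Other genes of the pathway were taken from a fixed list of 40, of which 39 were tested. At 8 h, 14 of them fell in EV cells, 14 in RelA-dTAD cells, 10 in RelA-dTA1 cells and 11 in RelA-WT cells, and 8 rose in each construct, beside the shares of all genes given above for 8 h. Mylip, whose product removes lipoprotein receptors and which liver X receptors induce, was at 8.6 and 10.3 CPM at 8 h, against 55.6 and 52.4 CPM at 0 h, in EV cells. In RelA-WT cells Mylip was at 27.2 and 33 CPM at 8 h, against 51.6 and 46 CPM at 0 h. It fell in all 4 constructs, with log2 changes of -2.46 ± 0.20 in EV, -2.57 ± 0.20 in RelA-dTAD, -1.04 ± 0.18 in RelA-dTA1 and -0.69 ± 0.18 in RelA-WT cells (SE). Its response differed from that of RelA-WT cells in EV (-1.77 ± 0.27 SE, adjusted p = 4.66e-05) and RelA-dTAD cells (-1.89 ± 0.27 SE, adjusted p = 2.94e-05).

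Soat1, which stores cholesterol as esters, rose in all 4 constructs and was at 414 and 329.5 CPM at 8 h, against 131 and 129.9 CPM at 0 h, in EV cells. In RelA-WT cells Soat1 was at 200.2 and 182 CPM at 8 h, against 145 and 127 CPM at 0 h. Its response was higher than in RelA-WT cells by 1.06 ± 0.22 (SE, adjusted p = 0.00113) in EV and 1.01 ± 0.22 (SE, adjusted p = 0.00245) in RelA-dTAD cells. Cyp7b1, which hydroxylates oxysterols, was at 1.67 and 4.04 CPM at 8 h, against 8.99 and 12.8 CPM at 0 h, in EV cells. In RelA-WT cells Cyp7b1 was at 20.7 and 30.4 CPM at 8 h, against 13.4 and 14.1 CPM at 0 h, a difference in response of -2.66 ± 0.65 (SE, adjusted p = 0.00525). Ch25h, which makes 25-hydroxycholesterol, an oxysterol that restrains SREBP processing, was at 12 and 10.2 CPM at 8 h, against 1.8 and 1.12 CPM at 0 h, in EV cells. In RelA-dTAD cells Ch25h was at 12.4 and 17.1 CPM at 8 h, against 4.93 and 1.87 CPM at 0 h. In RelA-dTA1 cells Ch25h was at 68.1 and 57 CPM at 8 h, against 3.76 and 4.65 CPM at 0 h. In RelA-WT cells Ch25h was at 92.4 and 60.2 CPM at 8 h, against 7.03 and 3.93 CPM at 0 h. It rose in all 4, by 3.00 ± 0.54, 2.36 ± 0.46, 3.86 ± 0.43 and 3.86 ± 0.43 on the log2 scale (SE), and its 8 h level was lowest in the EV libraries. Lpin1, a phosphatidate phosphatase, was at 6.21 and 6.52 CPM at 8 h, against 35.3 and 33.2 CPM at 0 h, in EV cells. In RelA-WT cells Lpin1 was at 22.3 and 19.8 CPM at 8 h, against 33.7 and 34.8 CPM at 0 h, and its response differed by -1.66 ± 0.35 (SE, adjusted p = 0.00129). Acss2, an acetyl-CoA synthetase and SREBP target, fell in all 4, by 1.197 ± 0.24 in EV, 1.47 ± 0.24 in RelA-dTAD, 1.18 ± 0.24 in RelA-dTA1 and 0.98 ± 0.23 in RelA-WT cells (SE).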

How the data were processed

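Counts of reads per gene were deposited by the authors as 2 tables of raw counts, 1 per set; per the submitters' processing notes, reads were trimmed with cutadapt 1.9.1, aligned with STAR to mm10 and counted with featureCounts 1.5.0. Per the labels' protocols, polyadenylated RNA was sequenced as single-end reads after a stranded kit; whether counting used strand is not given in the sources used here, so overlapping genes on opposite strands are uncertain. The number of sample columns left out was 0. Here, the 40 libraries of the 4 replicated constructs were fitted with edgeR 4.0.16 (R 4.3.3; TMM factors, filterByExpr, robust quasi-likelihood test, 20 groups, 20 residual degrees of freedom), with Benjamini-Hochberg adjustment over 13665 genes and a threshold of 0.05. All adjusted p-values are from this fit unless DESeq2 or the block is named. Those given with the set as a block are from the same test with the set added to the fit. The scripts were tested on simulated data. CPM are counts scaled by the library size after adjustment with its TMM factor, and not by the raw library total. Log2 changes are TNF minus 0 h of the same construct, and differences are that value minus the one of RelA-WT. Ratios of constructs with 1 library per time used a prior count of 2, 15090 genes and no test, and a log2 ratio of 1 or more in size counted as past the fold. A group with 0 reads was set to a floor of 3 reads over the group, which covers the counting error of that group only and not that of the group beside it.

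Replicate numbers match the sets, and same-numbered libraries deviated together: the correlations of deviations from the group means were 0.291 to 0.549 over 190 pairs of groups (median 0.414), so the numbers pair the libraries and a fit with the set as a block was run beside the one without. Alternatives were RLE factors, no filter, DESeq2 1.42.0 on genes with at least 10 reads, the block, leaving out each replicate of a construct, and, for constructs with 1 library per time, other prior counts and the RelA-WT of the other set. The genes given with values of every library are those that pass in a comparison, by size of change, up to 12 per comparison, plus Srebf1, Srebf2, Insig1, Abca1 and Abcg1; of the wider list, up to 6 per comparison. The 29 genes and all lists were chosen with earlier results of these data known. Tables were made with Python 3.11.15 and pandas 2.3.3, and figures with matplotlib 3.10.9.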

Additional observations from a re-analysis of the deposited data

Results flagged for a closer look

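A difference between groups flagged 10 results, all at 8 h and all tested as the difference of the TNF response from that of RelA-WT cells. In EV cells these were Abca1 at -2.38, Scd2 at -0.82, Mvd at -0.81, Stard4 at -0.68, Fdft1 at -0.57 and Insig2 at 1.04 on the log2 scale. In RelA-dTAD cells they were Abca1 at -2.27, Mvd at -0.89, Scd2 at -0.84 and Fdft1 at -0.60. No group held enough libraries for a check of single libraries far from the others.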

How the results depend on the processing

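Among single genes, 527 values kept direction and side of the threshold, 97 lost the call (91 of them without a replicate), 5 gained it and 6 changed sign. The changes of sign were Srebf1 in RelA-WT cells at 8 h, which was -0.003 and became 0.003 with RLE factors, 0.004 with DESeq2 and 0.089 without RelA-WT replicate 2 (-0.061 without replicate 1), Srebf2 in RelA-dTAD cells at 8 h (0.052 without replicate 2, -0.148 without replicate 1), Abca1 in RelA-dTA1 cells at 8 h (0.169 without replicate 1, -0.811 without replicate 2) and Insig1 there (0.139 without replicate 2, -0.738 without replicate 1). None of these was called. The totals above cover values chosen for this check and not every gene in every comparison. With the set as a block, 4 of the chosen values gained a call, while the counts of the whole list below hold further calls gained. Without the filter on low counts, genes of the list called against 0 h were 1 in EV at 3 h, 3 in RelA-WT at 3 h, 2 in RelA-dTA1 at 1 h and 2 at 3 h, 1 in RelA-dTAD at 1 h and 2 at 3 h. Differences from RelA-WT were then 1 in EV and 1 in RelA-dTAD at 3 h, and 8 in RelA-dTAD at 8 h. With the set as a replicate block, calls against 0 h were 1 in EV at 3 h, 5 in RelA-WT at 3 h and 8 at 8 h, 3 in RelA-dTA1 at 1 h and 3 at 3 h, and 2 in RelA-dTAD at 3 h. Over all times together they were 10 in RelA-WT and 15 in RelA-dTA1. Differences from RelA-WT under the block were 10 in EV at 8 h, and 1 at 3 h (Abca1) and 8 at 8 h in RelA-dTAD, and 8 h levels differed for 19 in RelA-dTAD. The block moved no other count of the list by more than 1.5 times. Leaving out a replicate gave 6 to 10 calls in EV, 7 to 16 in RelA-dTAD, 1 to 4 in RelA-dTA1 and 2 to 2 in RelA-WT at 8 h, and 0 to 1 in RelA-dTA1 and in RelA-WT at 3 h. Over all times it gave 5 to 6, 4 to 11, 2 to 2 and 1 to 4 in EV, RelA-dTAD, RelA-dTA1 and RelA-WT. Differences from RelA-WT at 8 h ranged from 1 to 4 in EV and 0 to 4 in RelA-dTAD, and 8 h levels from 8 to 15 and 4 to 12. Fewer libraries enter these fits. Against RelA-WT of the other set, the median 8 h difference was -0.04 in RelA-DB, -0.083 in RelA-dCterm, -0.181 in RelA-TA2_CI (0.041 against its own set), -0.623 in RelA-TA2_CI_S467A and -0.781 in RelA-TA2_CI_S467A-dTA1. With a prior count of 5, 0 genes of RelA-TA2_CI were past the fold. With 1 mismatch, 10 promoters held the SRE. The cause of these changes was not tested. Depth limits Abcg1, Idi1 and Tm7sf2, which have the fewest reads.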
